A study of Mus musculus with 12 samples.

Results

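The 10 genes described here encode DDX6 and the proteins that work with it in mRNA decapping and in P-bodies: Ddx6, Dcp1a, Dcp1b, Dcp2, Edc3, Edc4, Lsm14a, Patl1, Eif4enif1 and Xrn1. They were chosen by name for this known role, not for any value, though with earlier results of these data known. They are 10 of the 22462 genes in a table of read counts over coding sequence. All 10 passed the filter on low counts, as did 11750 genes in all. Across the ESC to EpiLC transition, Dcp2 fell to 0.543 of its embryonic stem cell (ESC) level in total RNA. In ribosome protected fragments (RPFs) it fell to 0.504. Ddx6, Eif4enif1 and Dcp1b rose in total RNA, though the changes of Ddx6 and Eif4enif1 lay between the quartiles over all tested genes. No member passed the test for a change in translational efficiency (TE, RPF divided by total RNA).

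Cytoplasmic mRNA is commonly degraded by shortening of its poly(A) tail, removal of its 5′ cap and digestion from the exposed 5′ end. DCP2 is the enzyme that cuts the cap. DCP1A and DCP1B are alternative forms of its activating subunit, EDC3 and EDC4 are enhancers of decapping, and XRN1 is the exonuclease that digests decapped mRNA. DDX6 is a DEAD-box RNA helicase that binds the CCR4-NOT deadenylase complex and couples microRNA-mediated silencing to translational repression and decapping. LSM14A, PATL1 and 4E-T (the product of Eif4enif1) bind DDX6, and many of these proteins gather in P-bodies, the cytoplasmic granules that hold repressed mRNA.

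Mouse ESCs were grown with serum, LIF and 2i, the inhibitors PD0325901 and CHIR99021, which hold them in the naive state. Epiblast-like cells (EpiLCs), a later state of pluripotency, were made from them by taking away LIF and 2i and were collected about 56 hours later. Each cell type gave 3 total RNA libraries and 3 RPF libraries, which makes 4 groups and 12 libraries. The labels name no strain, line, mutation or sex for these cultures, and no group lacks DDX6. For differentiation in its first figure the study lists a V6.5 ESC line with an mCherry reporter of miR-290 and a GFP reporter of miR-302. That figure includes the TE changes from ribosome profiling, so the study ties these libraries to that line, though their labels do not name it. The study calls the replicates biological, the labels only number them, and neither says how the cultures were kept apart, so p-values measure the spread between these libraries. Bulk libraries cannot tell fewer cells of a type from less RNA per cell.

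Among total RNA libraries, counts added up to 11491044 to 13477432 for ESC and 6188838 to 14655015 for EpiLC. Those of RPF were smaller, 4777262 to 11359352 for ESC and 2681439 to 5413144 for EpiLC, so the values of EpiLC RPF are the least precise. The naive markers Zfp42, Esrrb, Klf4 and Tfcp2l1 were lower in every EpiLC library than in any ESC library. The EpiLC markers Dnmt3b, Otx2, Fgf5 and Pou3f1 were higher, so these sets went the way of both labels. The shared pluripotency markers Pou5f1 and Sox2 were also lower in EpiLC. Their log2 changes were -0.65 and -2.72 in total RNA and -0.50 and -2.96 in RPF. Summed over 8 markers of endoderm, mesoderm and fibroblasts, the level in CPM (counts scaled to a common library size) was 4.62 to 5.64 for ESC and 12.7 to 19.0 for EpiLC in total RNA, and 10.6 to 13.2 for ESC and 39.9 to 43.2 for EpiLC in RPF. In EpiLC RPF the fibroblast markers Thy1 (15.3 to 22.8 CPM), Col1a1 (7.96 to 12.9) and Col1a2 (2.48 to 7.21) made up most of the sum. The endoderm marker Sox17 went the other way, from 0.637 to 1.65 CPM in ESC RPF to 0 to 0.187 in EpiLC RPF. Gata6 was also lower in EpiLC total RNA, with overlap. None of the 8 markers was at 0 in all libraries, and their part in the changes below was not tested.

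In ESC total RNA, Ddx6 and Lsm14a were the most abundant of the 10 mRNAs per length and Dcp1b the least. Levels are given as RPKM, which divides CPM by the counted length in kilobases, with library sizes scaled by TMM factors, as mean ± SD over 3 libraries. Ddx6 stood at 137 ± 1.76 and Lsm14a at 134 ± 4.04, and the libraries of this pair overlapped. Dcp2, the decapping enzyme, followed at 95.9 ± 0.79, above its enhancer Edc4 at 57.5 ± 1.31 and Eif4enif1 at 51.2 ± 0.37. Xrn1 stood at 32.2 ± 0.57, Edc3 at 29.3 ± 0.57, Patl1 at 21.8 ± 0.91 and Dcp1a at 17.4 ± 1.45. Dcp1b was last at 3.37 ± 0.25, so that the members spanned a range of 40.8-fold, from percentile 14.6 to 91.5 of all tested genes. Apart from Ddx6 and Lsm14a, no neighbours in this order shared overlapping libraries.

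In EpiLC total RNA the order changed in the middle. Ddx6 led at 159 ± 5.77 RPKM, now clear of Lsm14a at 142 ± 6.21, and Eif4enif1 at 67.9 ± 1.80 stood above Dcp2 at 52.4 ± 2.29 and Edc4 at 48.3 ± 0.98. Edc3 at 32.1 ± 3.63 overlapped Xrn1 at 31.8 ± 2.15, and Patl1 at 20.4 ± 3.31 overlapped Dcp1a at 18.5 ± 2.04. Dcp1b was again last, at 5.59 ± 1.27. The summed level of the 10 members was 580 ± 7.42 RPKM in ESC and 578 ± 16.6 RPKM in EpiLC total RNA, with overlapping libraries. Within that sum Dcp2 made up 16.5% ± 0.10 in ESC and 9.08% ± 0.13 in EpiLC, whereas Eif4enif1 went from 8.83% ± 0.08 to 11.7% ± 0.09 and Ddx6 from 23.7% ± 0.57 to 27.5% ± 1.03.

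Among RPFs, which weigh each mRNA by the ribosomes on it, Ddx6 led in both cell types, at 145 ± 12.1 RPKM in ESC and 150 ± 2.52 RPKM in EpiLC, and Lsm14a followed at 101 ± 5.66 and 96.0 ± 2.75. The other ESC RPF levels were 75.6 for Edc4, 63.9 for Dcp2, 52.9 for Edc3, 29.5 for Dcp1a, 23.4 for Eif4enif1, 21.5 for Xrn1, 19.6 for Patl1 and 3.12 for Dcp1b, where Eif4enif1 and Xrn1 alone overlapped as neighbours. In EpiLC RPF, Edc4 at 67.2 and Edc3 at 54.3 came next, and then Dcp2 at 31.5, Eif4enif1 at 29.9 and Dcp1a at 28.6, each overlapping its neighbour. Xrn1 at 21.0, Patl1 at 14.9 and Dcp1b at 5.80 closed the order. Both enhancers of decapping thus stood above the enzyme in EpiLC RPF, whereas in total RNA of the same cells Dcp2 stood above both. The summed RPF level of the members was 535 RPKM in ESC (524 to 548 by library) and 499 RPKM in EpiLC (498 to 501). Dcp2 alone, from 63.9 to 31.5 RPKM, fell by nearly as much as the sum, while the other members moved in both directions.

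**Figure D1:**
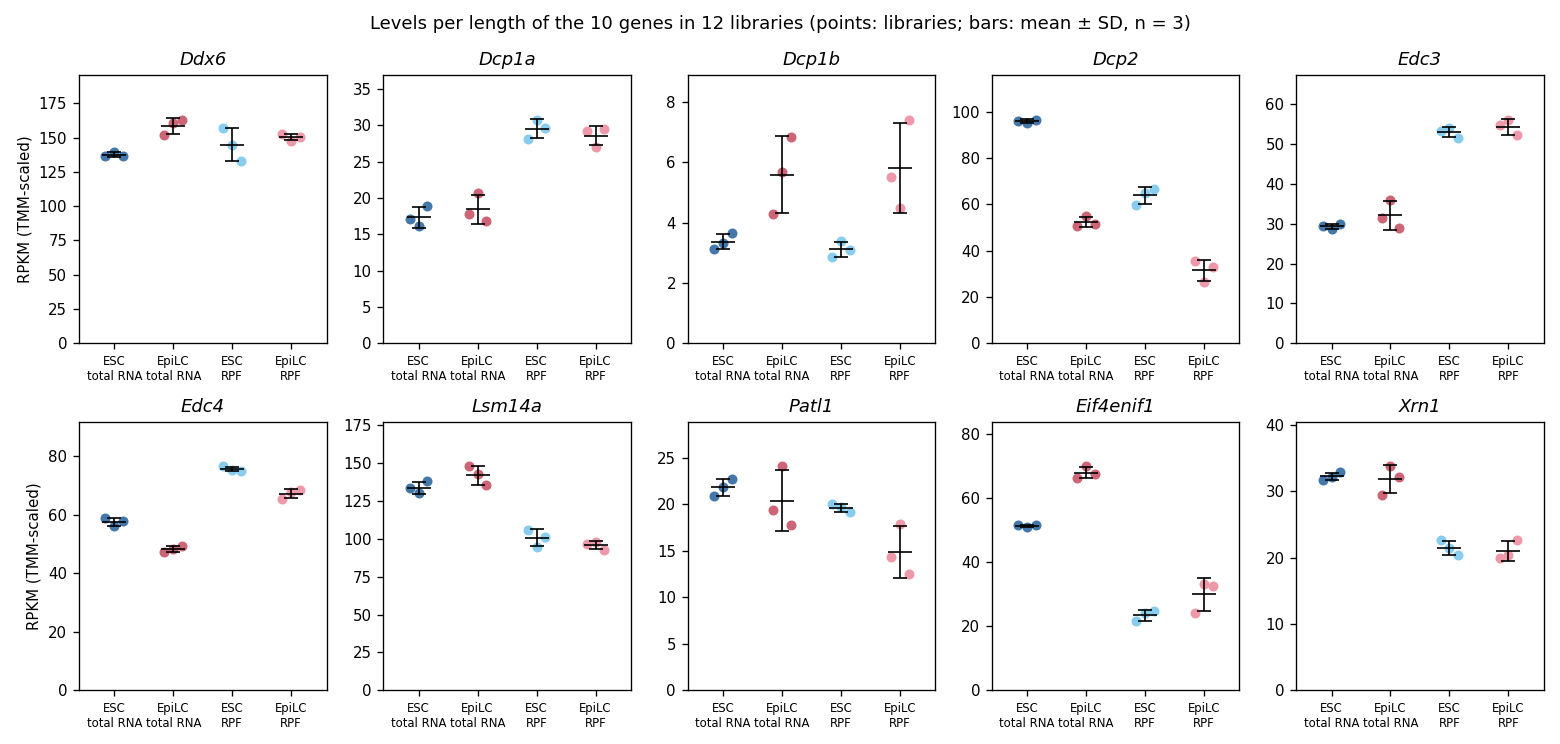
Level per length of each of the 10 genes in the 12 libraries, as RPKM on a linear axis from 0, with one panel per gene. Points are libraries and black bars the mean ± SD of 3 libraries. Dcp2 is lower in every EpiLC library of both assays (26.3 to 55.1 RPKM) than in the ESC libraries of the same assay (59.9 to 96.6 RPKM), and the EpiLC libraries of Dcp1b are spread widely, from 4.48 to 7.41 RPKM in RPF.

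The counted sequences differed in length and base composition, which bears on the tests below. Coordinates are those of the first and last counted base on mm10. Ddx6 (ENSMUSG00000032097.10, chromosome 9, 44607438 to 44635858, plus strand) has 1407 counted nt, and Dcp2 (ENSMUSG00000024472.9) has 1268. Xrn1 (ENSMUSG00000032410.13, chromosome 9, 95954914 to 96052809, plus strand) was the longest at 5157 nt and had a coding GC content of 42.9%, at percentile 5.9 of tested genes. Ddx6 at 45.9% and Dcp2 at 46.3% GC were also low (percentiles 14.8 and 16.3), and Dcp1b at 57.9% was the highest (percentile 77.4). The other 6 lay between 49.5% and 55.8%, around the median of 53.2% over tested genes. No member shares counted bases with another gene on its strand.

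ESCs and EpiLCs are known for microRNAs of the miR-290 and miR-302 clusters, and DDX6 acts in silencing by microRNAs. The mature sequences of 5 of them from RefSeq (GRCm38.p6) are shown because they share one seed, bases 2 to 8, which is in capitals.
mmu-miR-291a-3p: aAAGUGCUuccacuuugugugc
mmu-miR-294-3p: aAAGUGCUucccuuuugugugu
mmu-miR-295-3p: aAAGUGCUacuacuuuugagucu
mmu-miR-302b-3p: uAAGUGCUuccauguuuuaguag
mmu-miR-302d-3p: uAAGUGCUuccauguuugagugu
The first 3 are encoded on chromosome 7 and the other two on chromosome 3.

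The annotated 3′ UTRs of 9 members, those other than Ddx6 (Gencode M21, transcript strand only) were searched for the 6 letters GCACTT, which pair with bases 2 to 7 of these microRNAs, and for the 7 letters AGCACTT, which pair with bases 2 to 8 and contain the first motif. This search was chosen with the changes below known. The shorter motif was found in 31.3% and the longer in 16.1% of the 11601 tested genes with a 3′ UTR. Dcp2, with a 3′ UTR of 7240 nt, held 6 matches, 5 of them to the longer motif. Of 218 tested genes with 3′ UTRs between 0.8 and 1.25 times that length, 2.8% held at least as many of the shorter motif and 0.9% at least as many of the longer. Xrn1 held 2 matches to the shorter motif in only 218 nt, and 0.4% of 801 genes of like UTR length held as many. Edc3 and Dcp1b held 1 match each, a number that 70.3% and 37.4% of genes of like length reached, and Dcp1a, Edc4, Lsm14a, Patl1 and Eif4enif1 held none. A match is a description of letters, not a site shown to be used.

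The matches outside Dcp2 are printed with their surroundings, plus strand, mm10, the motif in capitals.
Dcp1b, chr6:119221487-119221514: gttcaatccctAGCACTTaaaaaaagaa
Edc3, chr9:57751375-57751402: cctctgcaaaatGCACTTgtccaggtac
Xrn1, chr9:96052924-96052951: ttaagttaccagGCACTTttcatgctat
Xrn1, chr9:96052962-96052989: atatcaaattgtGCACTTtaaatatgtg
The match in Dcp1b is the only one of these 4 that extends to the longer motif.

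**Figure D2:**
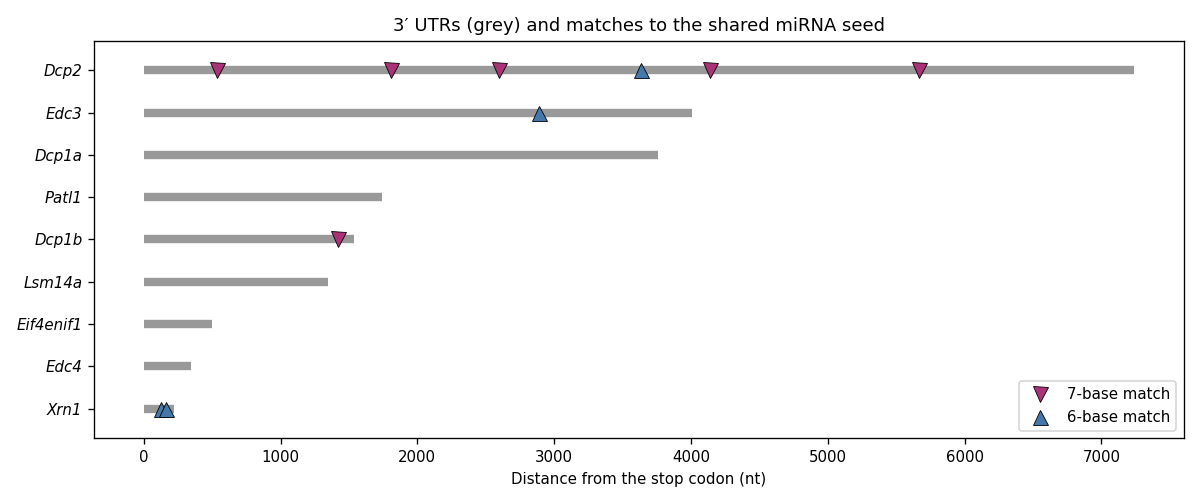
Annotated 3′ UTRs of 9 of the genes, without Ddx6 (grey bars, to scale) by distance from the stop codon in nt, with matches to the shared microRNA seed as triangles. Dcp2 carries 6 matches spread from nt 537 to 5669 of its 7240 nt, whereas the 2 matches of Xrn1 lie at nt 127 and 165 of 218.

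The first comparison asked how the mRNAs of the decapping machinery differed between ESCs and EpiLCs. In total RNA, Ddx6, Dcp1b and Eif4enif1 rose, Dcp2 and Edc4 fell, and the other 5 members did not pass the test. Among all tested genes 34.6% were called higher and 30.7% lower at an adjusted p under 0.05 (voom and limma, Benjamini-Hochberg over 11750 genes), so 3 and 2 of 10 are near the background. With an added limit of an absolute log2 fold change over 1, which 24.3% of genes passed, limma, edgeR and DESeq2 each called 0 members, also at an unadjusted p under 0.05. The median log2 change was 0.08 over the members and 0.03 over all genes. The quartiles over all genes were -0.366 and 0.491. Between them lay the called changes of Ddx6 (0.20, percentile 62.2), Eif4enif1 (0.40, percentile 71.8) and Edc4 (-0.25). Dcp1b (0.64) lay above this range and Dcp2 (-0.88) below it.

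Dcp2, the enzyme that removes the cap, fell in both assays. Its total RNA levels were 96.1, 95.1 and 96.6 RPKM in ESC and 50.9, 55.1 and 51.4 RPKM in EpiLC. Every EpiLC library lay far below every ESC library. The log2 change was -0.88 ± 0.07 (SE, 95% confidence interval -1.03 to -0.73, limma adjusted p = 1.50e-10). The same held for its RPFs, at 59.9, 64.8 and 66.9 RPKM in ESC and 35.4, 26.3 and 32.8 RPKM in EpiLC, which gave a log2 change of -0.99 ± 0.11 (limma adjusted p = 3.80e-08). Both calls were kept in all 20 alternative fits, with a log2 change of -0.92 to -0.85 in total RNA and -1.08 to -0.91 in RPF.

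Dcp2 and Eif4enif1 moved in opposite directions. Eif4enif1, whose product 4E-T binds the cap-binding protein eIF4E, stood at 51.5, 50.8 and 51.4 RPKM in ESC total RNA and at 66.3, 69.8 and 67.5 RPKM in EpiLC total RNA, without overlap. Its log2 change was 0.40 ± 0.07 (limma adjusted p = 2.20e-05). In RPF it had 21.5, 24.1 and 24.6 RPKM in ESC and 24.0, 33.0 and 32.5 RPKM in EpiLC. There EpiLC replicate 1 lay within the ESC range while the other two lay above it. The RPF change was 0.32 ± 0.11 (limma adjusted p = 0.0110), and it lost its call without ESC RPF replicate 1 (0.25, adjusted p = 0.0557) or without EpiLC RPF replicate 3 (0.22, adjusted p = 0.114).

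Ddx6 total RNA levels were 136, 139 and 136 RPKM in ESC and 152, 160 and 163 RPKM in EpiLC. All 3 EpiLC libraries were above the ESC libraries, by a small margin. The log2 change was 0.20 ± 0.06 (95% confidence interval 0.07 to 0.33, limma adjusted p = 0.00613), or 1.15-fold, and it was called in all 20 alternative fits (0.16 to 0.24). Ddx6 RPFs stood at 157, 144 and 133 RPKM in ESC and 153, 148 and 151 RPKM in EpiLC. Here the EpiLC libraries lay inside the ESC range. The RPF change of 0.07 ± 0.07 did not pass the test (limma adjusted p = 0.437, 95% confidence interval -0.08 to 0.22).

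The paralogs Dcp1a and Dcp1b differed in level and in their changes. Dcp1b had 3.14, 3.33 and 3.64 RPKM in ESC total RNA and 4.29, 5.67 and 6.82 RPKM in EpiLC total RNA. Its RPFs were 2.87, 3.39 and 3.08 RPKM in ESC and 5.50, 4.48 and 7.41 RPKM in EpiLC. In both assays the lowest EpiLC library stood above the highest ESC library, on counts of only 20 to 109 reads per library. The log2 changes were 0.64 ± 0.20 in total RNA (limma adjusted p = 0.00676) and 0.96 ± 0.27 in RPF (limma adjusted p = 0.00407). Each rested on the highest EpiLC library: without EpiLC total RNA replicate 3 the first was 0.48 (adjusted p = 0.0519), and without EpiLC RPF replicate 3 the second was 0.74 (adjusted p = 0.0539).

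Dcp1a stood at 17.1, 16.1 and 19.0 RPKM in ESC total RNA and at 17.8, 20.7 and 16.8 RPKM in EpiLC total RNA, and its RPFs at 28.1, 30.8 and 29.7 RPKM in ESC and 29.2, 27.1 and 29.5 RPKM in EpiLC. These groups overlapped in both assays. Its log2 changes of 0.07 ± 0.10 and -0.03 ± 0.11 did not pass the test (limma adjusted p = 0.577 and 0.851).

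Since both genes code the DCP1 subunit, their ratio within each library was also taken, which does not depend on scaling between libraries. Per counted kilobase, Dcp1a exceeded Dcp1b by 5.44, 4.84 and 5.21 times in ESC total RNA and by 4.14, 3.66 and 2.47 times in EpiLC total RNA. In RPF the ratios were 9.79, 9.09 and 9.63 in ESC and 5.31, 6.04 and 3.98 in EpiLC. Every EpiLC ratio was below every ESC ratio of its assay. The log2 ratio differed by -0.62 in total RNA and -0.92 in RPF, each with p = 0.10 in a 2-sided exact permutation test, the smallest p that 3 against 3 libraries allow (20 splits, 2 tests, adjusted p also 0.10). Without EpiLC total RNA replicate 3 the difference in total RNA was -0.40.

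**Figure D3:**
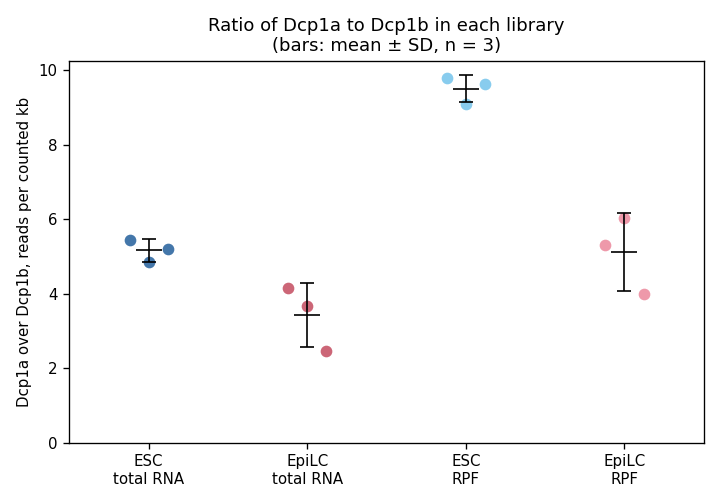
Ratio of Dcp1a to Dcp1b in reads per counted kilobase, one point per library, on a linear axis from 0, with black bars for the mean ± SD of 3 libraries. The mean is 5.16 in ESC and 3.42 in EpiLC total RNA, and 9.50 in ESC and 5.11 in EpiLC RPF, with no overlap between cell types within an assay.

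Edc4, a scaffold that brings decapping factors together, fell by a small amount in both assays. Its total RNA levels were 58.8, 56.2 and 57.7 RPKM in ESC and 47.4, 48.3 and 49.3 RPKM in EpiLC, and its RPF levels 76.5, 75.3 and 75.0 RPKM in ESC and 65.4, 67.8 and 68.4 RPKM in EpiLC. The groups did not overlap in either assay. The log2 changes were -0.25 ± 0.05 (limma adjusted p = 0.000257) and -0.17 ± 0.06 (limma adjusted p = 0.0167). The RPF call was lost under a correction for GC content (-0.13, adjusted p = 0.0664) and without EpiLC RPF replicate 1 (-0.16, adjusted p = 0.0605). Edc3, the other enhancer, had 28.7 to 29.8 RPKM in ESC and 28.8 to 36.0 RPKM in EpiLC total RNA, and log2 changes of 0.11 ± 0.09 there and 0.04 ± 0.09 in RPF did not pass the test (limma adjusted p = 0.271 and 0.750).

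Among the partners of DDX6, Patl1 was called in RPF, as was Eif4enif1, described above. Patl1 had 20.0, 19.7 and 19.1 RPKM in ESC RPF and 14.3, 17.9 and 12.5 RPKM in EpiLC RPF. All EpiLC libraries were lower, though they were spread more widely. The log2 change was -0.46 ± 0.14 (limma adjusted p = 0.00646), and without EpiLC RPF replicate 3 it was -0.33 (adjusted p = 0.0757). In total RNA Patl1 had 20.9 to 22.7 RPKM in ESC and 17.7 to 24.1 RPKM in EpiLC, and -0.13 ± 0.10 did not pass (limma adjusted p = 0.250). Lsm14a, which had 130 to 138 RPKM in ESC and 136 to 148 RPKM in EpiLC total RNA, changed by 0.09 ± 0.06 in total RNA and -0.08 ± 0.08 in RPF, neither past the test (limma adjusted p = 0.190 and 0.391).

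Xrn1, the exonuclease that acts after decapping, did not pass the test in either assay. Its levels were 31.7 to 32.8 RPKM in ESC and 29.5 to 33.7 RPKM in EpiLC total RNA, and 20.4 to 22.6 RPKM in ESC and 19.9 to 22.7 RPKM in EpiLC RPF. The cell types overlapped in both assays. The log2 changes were -0.03 ± 0.07 (95% confidence interval -0.17 to 0.10, limma adjusted p = 0.674) and -0.02 ± 0.09 (-0.20 to 0.16, limma adjusted p = 0.866).

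Over the 10 members, 2 rose in RPF (Dcp1b, Eif4enif1) and 3 fell (Dcp2, Edc4, Patl1), against 31.1% of tested genes called higher and 28.7% called lower. With the fold limit, which 26% of genes passed, limma and edgeR called 0 members, also at an unadjusted p under 0.05, and DESeq2 called 1, Dcp2. Dcp2 passed that limit in 5 of 20 alternative fits and Dcp1b in 3. The median log2 RPF change was -0.02 over the 10 members and 0.01 over all genes. The number called higher in RPF fell to 1 without ESC RPF replicate 1 and to 0 without EpiLC RPF replicate 3.

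TE compares these 2 assays in one model and asks whether the ribosome load of an mRNA moved apart from its amount. None of the 10 members was called for a TE change, with log2 changes from -0.33 ± 0.17 for Patl1 to 0.32 ± 0.34 for Dcp1b (limma adjusted p = 0.405 and 0.733). For Ddx6 the TE change was -0.13 ± 0.10 (95% confidence interval -0.33 to 0.06, limma adjusted p = 0.571), for Dcp2 -0.11 ± 0.13 (-0.38 to 0.17, adjusted p = 0.778), and for Xrn1 0.01 ± 0.11 (-0.21 to 0.24, adjusted p = 0.971). The intervals show how large a change these libraries leave room for. TE calls were rare throughout: 0.57% of tested genes (67) were called higher and 0.63% (74) lower, and 0.255% passed the fold limit. With library totals in place of TMM factors the calls were 84 higher and 51 lower. With the replicate number as a block they were 128 higher and 133 lower, with 0 members called after adjustment and 1 at an unadjusted p under 0.05. With total RNA and RPF of one number in one cell type as a pair they were 101 higher and 102 lower, with 0 members called with and without adjustment. Limma called 0 members also at an unadjusted p under 0.05, and edgeR and DESeq2 called 0 with and without adjustment. The median TE change was -0.09 over the members and 0.01 over all genes, whose median SE was 0.197.

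**Figure D4:**
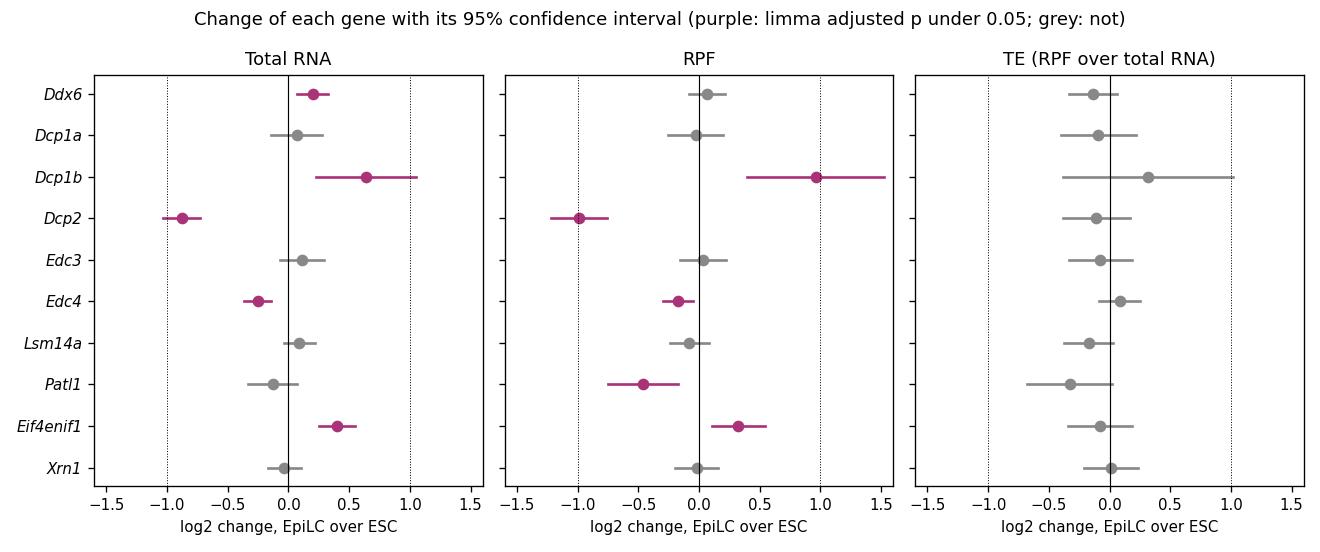
Log2 change from ESC to EpiLC of each of the 10 genes in total RNA, RPF and TE, as points with 95% confidence intervals. Purple marks an adjusted p under 0.05 and dotted lines a log2 change of 1 in either direction. Dcp2 lies at -0.88 and -0.99 in the first 2 panels, and every interval in the TE panel includes 0.

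Within a cell type, the members differed widely in TE itself. In ESC, 3 members had more RPF than total RNA after scaling (Edc3, Dcp1a, Edc4) and 4 had less (Eif4enif1, Xrn1, Dcp2, Lsm14a), where 33% of tested genes were called higher and 34.5% lower. In EpiLC the same 3 genes were called higher, and the same 4 and Patl1 lower, against 31.3% and 33% of tested genes. These shares are near the background. TE here is relative to the average gene, since both kinds of library are scaled to it.

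Edc3 had the highest TE. Pairing libraries by their number only to show the spread, its log2 TE was 0.86, 0.91 and 0.79 in ESC and 0.80, 0.64 and 0.86 in EpiLC. The fitted values were 0.84 ± 0.08 (limma adjusted p = 2.54e-09, percentile 88.5 of tested genes) and 0.77 ± 0.10 (limma adjusted p = 1.31e-07). Dcp1a was close, at 0.76 ± 0.10 in ESC (percentile 86.0) and 0.67 ± 0.11 in EpiLC. Edc4 stood at 0.39 ± 0.05 and 0.48 ± 0.06.

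Eif4enif1 had the lowest TE. Its log2 TE was -1.26, -1.08 and -1.07 in ESC and -1.46, -1.08 and -1.05 in EpiLC. The fitted values were -1.13 ± 0.09 (limma adjusted p = 2.04e-11, percentile 11.6) and -1.21 ± 0.09 (limma adjusted p = 3.72e-11, percentile 10.7), that is, 0.456 and 0.432 RPF per total RNA relative to the average gene. Dcp2 stood at -0.59 ± 0.07 in ESC and -0.69 ± 0.11 in EpiLC, Lsm14a at -0.40 ± 0.06 and -0.57 ± 0.07, and Patl1 at -0.15 ± 0.10 and -0.48 ± 0.14. Patl1 in EpiLC was called (limma adjusted p = 0.00330) but not without EpiLC RPF replicate 3 (-0.34, adjusted p = 0.0569).

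The TE of Ddx6 was near that of the average gene, at 0.07 ± 0.06 in ESC and -0.07 ± 0.07 in EpiLC (limma adjusted p = 0.363 and 0.413). Both values moved with base composition. With log2 CPM corrected for coding GC content in each library they became 0.27 (adjusted p = 0.000243) and 0.23 (adjusted p = 0.00263). Xrn1, the member with the lowest GC content, had -0.59 ± 0.07 in ESC and -0.58 ± 0.08 in EpiLC, and after the correction -0.20 (adjusted p = 0.00666) and -0.03 (adjusted p = 0.758). The TE levels of this pair therefore depend on that correction. Other levels also moved over the 9 alternative fits that kept every library, but kept their calls. Dcp2 ran from -0.66 to -0.40 in ESC and from -0.74 to -0.43 in EpiLC, and Edc4 from 0.24 to 0.43 and from 0.28 to 0.53. Dcp1b, with 20 to 109 reads per library, was not called in either cell type, at -0.12 ± 0.24 and 0.20 ± 0.23.

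**Figure D5:**
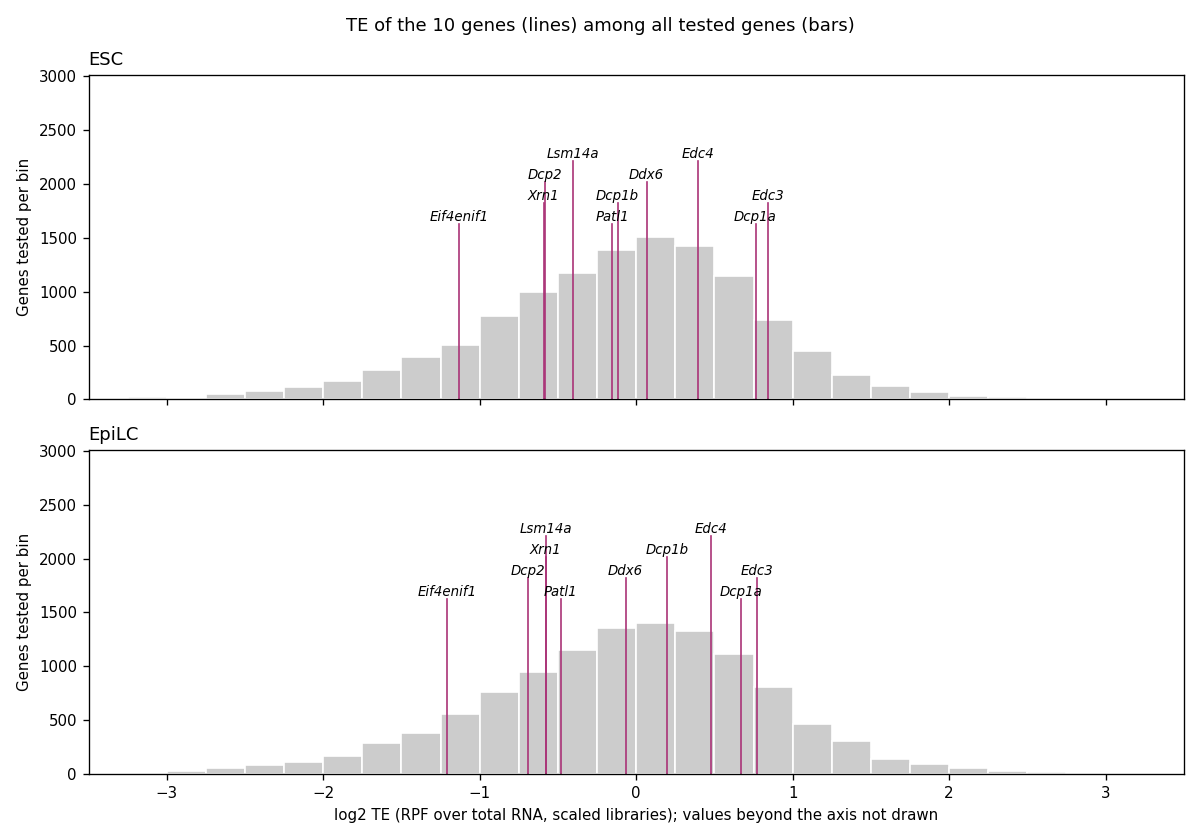
Log2 TE of the 10 genes (purple lines) in ESC and EpiLC among all tested genes (grey bars, number of genes per bin of 0.25). Line heights only separate the names. In both cell types Eif4enif1 lies lowest, at -1.13 and -1.21, and Edc3 highest, at 0.84 and 0.77.

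The genes whose log2 CPM followed that of Ddx6 most closely over the 12 libraries were Skp1a (Pearson r = 0.921), Vbp1 (0.909), Arsb (0.905), Chrnb1 (0.895) and Snx16 (0.892). These libraries fall into 4 groups and share depth and assay, and r describes likeness of profile, nothing more. Among the members r with Ddx6 ran from -0.546 for Dcp2 to 0.643 for Dcp1b, with Eif4enif1 at 0.184 and Lsm14a at 0.082. Dcp1b, the member nearest to Ddx6, ranked 1079 among the tested genes.

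A further 31 genes of decapping, P-bodies and silencing were listed by role, and 29 of them were tested. In total RNA 10 rose, 8 fell and 11 were not called, and in RPF 9 rose, 9 fell and 11 were not called, near the shares of all genes given above. For TE 1 rose, 1 fell and 27 were not called, where 0.57% of all tested genes were called higher and 0.63% lower. The number lower became 2 in edgeR, in DESeq2 and with the replicate block, alone or with the GC correction. DESeq2 also called 2 higher. Whether these counts exceed the shares of all genes was not tested. The 6 tested genes of the LSM ring, which binds the 3′ end of deadenylated mRNA with PATL1, had log2 changes of -0.19 to 0.32 in total RNA. Of the 7 P-body and silencing genes, 5 were called higher there and 2 lower, against 34.6% and 30.7% of all tested genes.

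The largest changes on that list exceeded those of any member. Zfp36 codes the AU-rich element binding protein tristetraprolin. It rose by 2.30 ± 0.37 on the log2 scale in total RNA and by 3.63 ± 0.29 in RPF. Its RPF reads went from 12 to 39 per ESC library to 112 to 224 per EpiLC library. In ESC total RNA it had only 14 to 16 reads per library, or 1.09 to 1.35 CPM, and in ESC RPF 2.55 to 3.57 CPM. Zfp36 therefore passed the filter of 3 CPM in 3 libraries only through its EpiLC libraries, and its changes rest on few ESC reads. Limd1 and Ajuba, LIM-domain proteins of P-bodies, rose by 1.53 ± 0.11 and 1.43 ± 0.08 in total RNA and by 1.49 ± 0.20 and 1.61 ± 0.09 in RPF, whereas Mov10, an RNA helicase of the silencing machinery, changed by -1.41 ± 0.08 in total RNA (all limma adjusted p under 0.05). The TE calls were Lsm6 at 1.41 ± 0.26 (limma adjusted p = 0.00659) and Cnot1, the scaffold of the CCR4-NOT complex that binds DDX6, at -0.52 ± 0.07 (limma adjusted p = 0.000150).

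TE levels on the list also reached beyond those of the members. Lsm2 stood at 2.26 ± 0.13 in ESC and 2.27 ± 0.16 in EpiLC, and Wtip at -2.31 ± 0.16 and -2.26 ± 0.17. Nbdy stood at -1.73 ± 0.36 in ESC and -1.70 ± 0.35 in EpiLC. It had only 6 to 33 RPF reads per ESC library and 8 to 15 per EpiLC library, on 249 counted nt. Zfp36 stood at 1.34 ± 0.42 in ESC, with 14 to 16 total RNA reads per library, and at 2.67 ± 0.20 in EpiLC. Lsm5 had 1 to 5 RPF reads in the ESC libraries and 0 to 1 in the EpiLC libraries against 19 to 59 total RNA reads, on 231 counted nt, and no fold is given for it.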

How the data were processed

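Ribosome profiling libraries and matched total RNA libraries of mouse ESCs and EpiLCs were made with the TruSeq Ribosome Profiling kit, 3 of each kind, and were grouped by their titles. A single table of raw counts by gene was deposited. Per the file headers, the labels and the study's methods, cutadapt (1.14) removed adapters, RPF reads of 26 to 32 nt and total RNA reads of at least 32 nt were kept, reads with a single mapping position came from STAR version 2.5.3a on mm10, and featureCounts version 1.5.3 counted the 5′ end of each read on the sense strand over Gencode M14 coding sequence without its first 45 nt. Treatment of PCR duplicates is not given in the sources used here. The depth is given with the results. In the shallowest library 3 counts equal 1.12 CPM.

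Genes with at least 3 CPM in at least 3 libraries were kept (11750). Library sizes were adjusted by TMM (edgeR 4.0.16), and the counts were fitted with voom and limma (3.58.1, R 4.3.3) as one model with the 4 groups as levels and no replicate block, as the study's interaction design implies; voom and TMM were chosen here because the values are counts. Contrasts gave the changes in total RNA, RPF and TE and the TE level within a cell type. P-values were adjusted by Benjamini-Hochberg over all tested genes, with calls made under 0.05. RPKM used the counted lengths in the table. GC content and 3′ UTRs came from Gencode M21 on the same assembly (the 3′ UTR of Ddx6 is not reported here), and symbols were matched for 22385 genes. Same-group libraries differed beyond sampling noise, with a chi-square of 2.48 to 7.62 per degree of freedom in 12 pairs. The scripts were tested on simulated data.

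All 10 members are named. Of the pathway list, genes were named by the largest absolute change, up to 4 called genes per contrast. The members and lists were chosen with earlier results of these data known. Alternatives were edgeR's quasi-likelihood test, DESeq2 version 1.42.0, library totals, no expression filter, at least 10 counts in every library, the replicate block, a GC correction (loess, span 0.3), both together, each library left out in turn, and, for TE, a block within cell type added after seeing the data.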

Additional observations from a re-analysis of the deposited data

Results flagged for a closer look

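The members gave no value that stood out by the criteria applied, which were a test of the difference in the cell type effect between assays and, for groups of at least 4 samples, a far outlier, which groups of 3 do not permit. On the list of related genes, the effect of cell type differed between RPF and total RNA for Lsm6 and Cnot1. Lsm6, a subunit of the LSM ring, had 81 to 122 RPKM in ESC RPF and 255 to 455 RPKM in EpiLC RPF against 124 to 167 and 157 to 192 RPKM in total RNA, and its log2 TE change was 1.41 (limma adjusted p = 0.00659). It has only 198 counted nt, and its highest RPF library in EpiLC was replicate 3. The change was 1.10 to 1.70 when each library was left out in turn, and it was called each time.

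Cnot1 had 101 to 104 RPKM in ESC RPF and 62.9 to 64.2 RPKM in EpiLC RPF against 298 to 309 and 259 to 287 RPKM in total RNA, and a TE change of -0.52 (limma adjusted p = 0.000150). It was -0.56 to -0.49 with each library left out and was called each time.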

How the results depend on the processing

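The numbers of members called higher or lower and the ratio of Dcp1a to Dcp1b stayed within 1.5 times (counts) or 1 SD (ratio) in all 88 values from alternatives that kept every library. With each library left out in turn, the number of members called higher in RPF ran from 0 to 2, and the other counts stayed within 1.5 times. The log2 ratio ran from -0.78 to -0.40 in total RNA and from -1.05 to -0.75 in RPF, the value nearest 0 being that without EpiLC replicate 3 of the assay. Directions turned for values that were small and uncalled as reported. The RPF change of Dcp1a was 0.00355 with library totals, 0.0352 with the GC correction and 0.0359 with GC correction and block, and that of Xrn1 was 0.0108, 0.145 and 0.147. The TE change of Xrn1 was -0.00396 in edgeR. Ddx6 TE was -0.00495 in ESC with library totals, and in EpiLC 0.233 with the GC correction and 0.235 with GC correction and block, where Dcp1b TE was -0.0367. Those 2 values of Ddx6 were called (adjusted p = 0.00263 and 0.00215). Over the left-out libraries the ranges that crossed 0 were -0.0713 to 0.0312 for Xrn1 in total RNA, -0.00200 to 0.125 for Ddx6, -0.0680 to 3.70e-05 for Dcp1a and -0.0869 to 0.0179 for Xrn1 in RPF, -0.159 to 0.0947 for Eif4enif1 and -0.0499 to 0.0691 for Xrn1 in TE change, -0.000710 to 0.127 for Ddx6 TE in ESC, and -0.0712 to 0.363 for Dcp1b TE in EpiLC. The cause was not tested.

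Deviations of same-numbered libraries from their group means had r of -0.0127 to 0.0329 between cell types in total RNA and 0.0194 to 0.0401 in RPF. Between assays r was -0.182 to 0.163. For libraries of unlike number these ranges were -0.0328 to 0.0312, -0.026 to 0.00317 and -0.183 to 0.201. Only between cell types in RPF did every same-numbered r exceed the others, so these small values do not settle whether the numbers mark pairs. The study describes total RNA as matched to RPF but does not say that the numbers mark the match, so a fit with the number as a block within each cell type was added after seeing the data. It changed no call of a member for TE change or TE level. The replicate block called the same number of members in total RNA, 3 higher and 2 lower, and by itself changed no call of a member, whereas with GC correction and block Edc3 was called in total RNA (0.19, adjusted p = 0.0461). Over all genes, TE calls were 67 higher and 74 lower, but 128 and 133 with the block, 101 and 102 with the block within cell type, 145 and 140 in DESeq2, 40 and 27 with no expression filter, 123 and 96 with GC correction and block, and 40 to 105 and 18 to 102 with libraries left out. Depth limits Dcp1b most, with 20 to 109 reads per library, and EpiLC RPF in general.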
